A study of Homo sapiens with 4 samples.

Results

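A group of 52 genes of epithelial-mesenchymal transition, TGF-beta signalling and the matrix was examined, among 22439 genes with a matched probe. It held 21 epithelial members, 15 mesenchymal members and 16 others, which were TGF-beta ligands, receptors and *SMAD3*, *TGFBI*, *EMP1*, metalloproteinases and their inhibitors. The members were chosen by gene symbol, through the RefSeq accession of each array probe, and were measured by 64 probes. 42 members had 1 probe, and 2 members, *KRT8* and *ZEB2*, had 3 probes.

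Epithelial cells can lose their cell-to-cell junctions and keratins and take up a spindle-shaped, motile state with *VIM*, *CDH2* and *FN1*, a shift called epithelial-mesenchymal transition. Transforming growth factor beta (TGF-beta) is a classical inducer of it: the ligand binds a type II receptor, which activates a type I receptor, which in turn phosphorylates SMAD2 and SMAD3. Transcription factors of the ZEB, SNAI and TWIST families then repress epithelial genes, partly through E-box sequences, and the cells remake the surrounding matrix with collagens, crosslinking enzymes and metalloproteinases.

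RNA of A549, an established human lung adenocarcinoma cell line, was hybridized to 4 one-color Agilent arrays. The cells of 1 array were transfected with *miR-486-5p*, those of 1 array with *miR-486-3p*, the other strand of the same precursor, and those of the 2 mock arrays received the transfection reagent (Lipofectamine RNAiMAX) alone. No array of cells given a control miRNA was analysed here, and the labels give neither a dose nor a time. Both strands were set against the same mock arrays, so the comparisons are not independent of each other.

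The signal of a probe is given as its log2 value relative to the 75th percentile of its array, so 0 is that percentile, and a log2 difference is the signal after transfection minus the mock mean. A difference below −0.5 or above 0.5 is called past the limit. "Rose" and "fell" are used for genes called by limma at an adjusted p of 0.05 (Benjamini-Hochberg over 33498 probes), and SE is the standard error from that fit. The fit has 1 residual degree of freedom, between the mock arrays, and it takes the transfected arrays to be as variable as the mock arrays. Whether the mock arrays came from separate cultures is not stated, so p-values measure only the spread between these arrays. In bulk RNA, fewer cells that express a gene and less of its RNA per cell cannot be told apart.

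Between 30690 and 31516 probes were well above background on each array, and no spot was saturated. The arrays shared 1 slide and 1 scan. Over the 50 member probes well above background on every array, mock 1 and mock 2 differed with an SD of 0.125, against 0.748 for the *miR-486-5p* differences and 0.955 for the *miR-486-3p* differences. The epithelial markers *KRT8*, *KRT18* and *KRT19* were well above background on every array and *CDH1* on none. Of 10 fibroblast, leukocyte and endothelial markers, 4 (*COL3A1*, *LUM*, *PECAM1* and *KDR*) were well above background on none. *DCN*, *PDGFRB* and *PTPRC* were above it on some of their probes, and *DCN*, a fibroblast gene, rose by 1.89 after *miR-486-3p*. Of the alveolar type 2 markers, *SFTPC* was above background on all arrays and *SFTPB* on none. *CD3E* and *CDH5* were above it on all. The part of such signals in the results was not tested.

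40 members had a probe well above background on all arrays, and 5 had none on any array: *CDH1*, *GRHL2*, *SNAI2*, *MMP7* and *TIMP3*. After *miR-486-5p*, 22 of the 47 members with a value were past the limit, against 29.7% of all genes. Of the 47, 16 were past it downward (34.0%), against 15.9% of all genes, and 6 were past it upward (12.8%), against 13.8%. limma called 13 of 47 members, against 10.2% of all genes. It called 10 lower (21.3%), against 6.63% of all genes, 2 higher (4.26%), against 3.55%, and *KRT8* both ways on different probes, against 0.0300%. These calls lie at adjusted p-values of 0.0475 to 0.0488, and with the authors' own log2 values or without a filter on dim probes limma called 0 members, with 27 members at an unadjusted p under 0.05 in each case.

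After *miR-486-3p*, 26 of the 44 members with a value were past the limit, against 57.7% of all genes. Of the 44, 17 were past it downward (38.6%), against 27.2% of all genes, and 9 upward (20.5%), against 30.5%. limma called 30 of 47 members, against 62.2% of all genes, so a call by itself sets a member apart little. It called 18 lower (38.3%), against 30.4% of all genes, 11 higher (23.4%), against 30.7%, and *KRT8* again both ways, against 1.19%. When each array was scaled to its median instead, the median of all genes moved by −0.37 after *miR-486-3p*, and the members past the limit became 24 lower and 6 higher, while 41.7% of all genes were then past it downward and 17.8% upward.

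**Figure D1:**
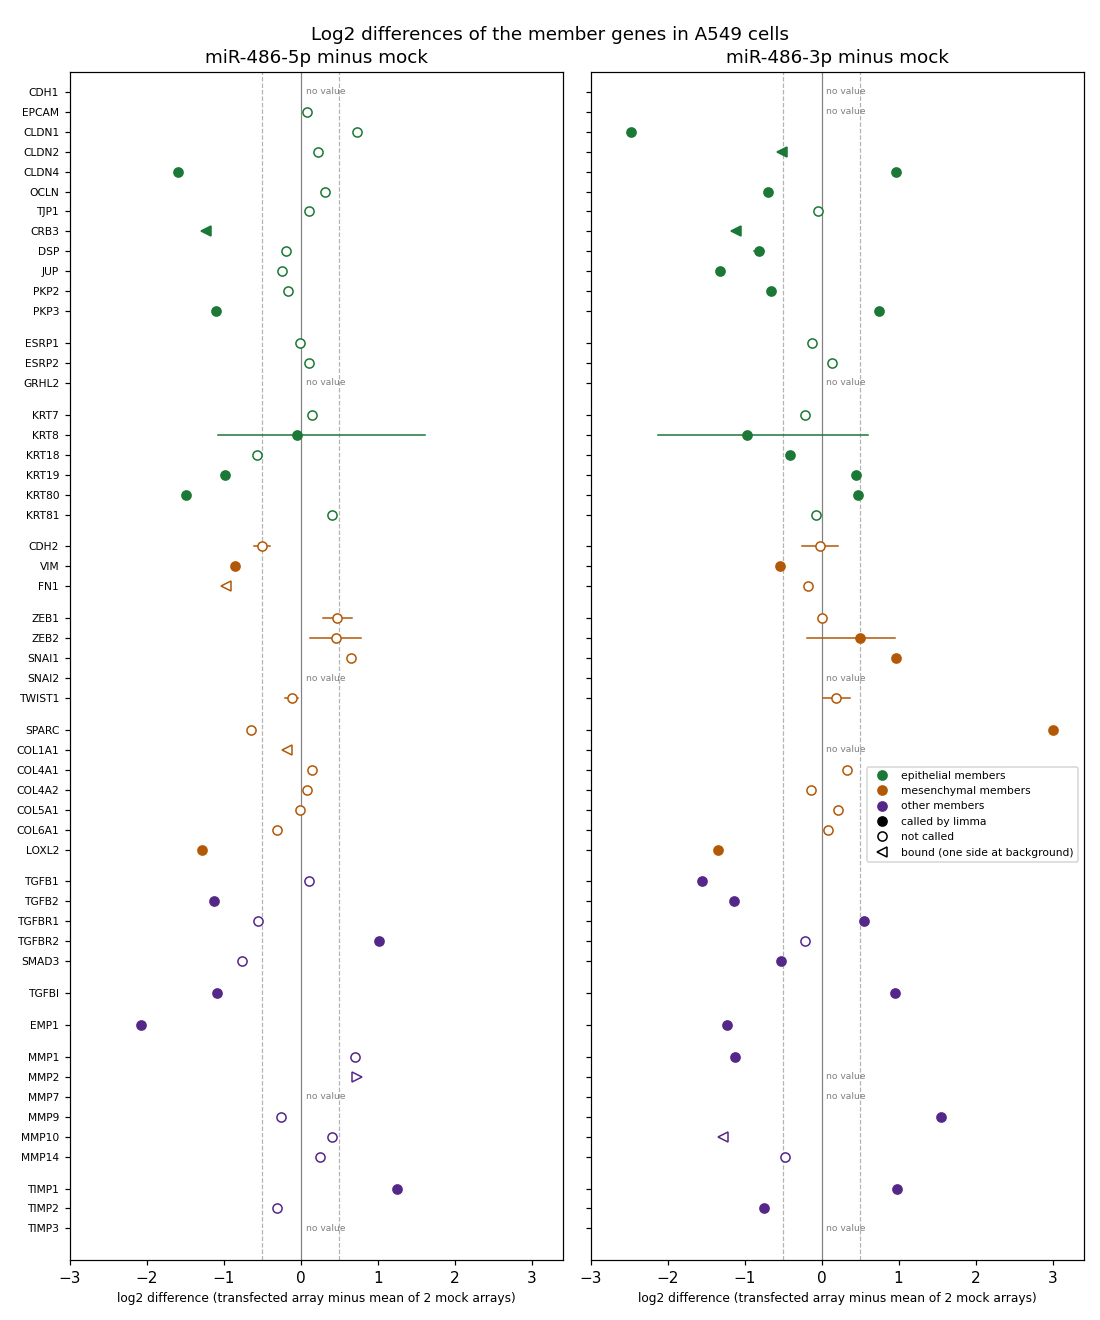
Log2 difference from the mock mean (horizontal axis) of each member (vertical axis) after *miR-486-5p* (left) and *miR-486-3p* (right), colored by epithelial, mesenchymal or other role. Filled points were called by limma, horizontal lines span the probes of a gene, and dashed lines mark −0.5 and 0.5. Triangles are bounds, except for *CRB3* after *miR-486-5p*, where the measured value is shown. Members marked "no value" have no fold (limma still called *EPCAM* and *COL1A1* after *miR-486-3p*). *SPARC* after *miR-486-3p* lies farthest to the right and *CLDN1* after *miR-486-3p* farthest to the left.

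The epithelial members that form cell junctions were lower after *miR-486-3p* more often than not. Of the 10 with a value, 7 were past the limit downward (70.0%, against 27.2% of all genes) and 2 upward (20.0%, against 30.5%). Their median difference was −0.68, against 0.06 for all genes. These counts depended on the background correction. With normexp, *CLDN1* (−1.77) and *JUP* (−0.51) stayed past the limit downward. *DSP* (−0.42), *PKP2* (−0.34), *OCLN* (−0.16) and *CRB3* (−0.01) did not, and *CLDN2* had no value. *CLDN4* (0.63) and *PKP3* (0.61) stayed past it upward. With normexp 19.1% of all genes were past the limit downward and 15.5% upward. limma called 8 of the 11 tested lower (72.7%, against 30.4% of all genes) and 2 higher (18.2%, against 30.7%). The 8 include *EPCAM*, which was tested only because its probe was well above background after *miR-486-5p*, and which has no value after *miR-486-3p*. *CLDN1*, *CLDN2*, *OCLN*, *CRB3*, *DSP*, *JUP*, *PKP2* and *EPCAM* fell, *CLDN4* and *PKP3* rose, and *TJP1* was not called. After *miR-486-5p*, 3 of the 11 fell (*CLDN4*, *CRB3* and *PKP3*; 27.3%, against 6.63% of all genes) and 0 rose, with a median of −0.16, against 0.03 for all genes.

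*CLDN1*, a tight junction claudin, had signals of 1.63 and 1.46 in mock cells, 2.27 after *miR-486-5p* and −0.93 with *miR-486-3p*. The *miR-486-3p* array was far below the others, a 5.54-fold fall (log2 difference −2.47, SE 0.13, adjusted p = 0.00774 by limma). The *miR-486-5p* array was above both mock arrays by 0.72 (SE 0.13), which was not called (adjusted p = 0.0681 by limma). *CLDN4*, another tight junction claudin, had signals of −0.23 and −0.18 in mock cells, −1.80 after *miR-486-5p* and 0.76 with *miR-486-3p*. The strands thus lay on opposite sides of the mock arrays: *CLDN4* fell 3.01-fold after *miR-486-5p* (SE 0.09, adjusted p = 0.0475 by limma) and rose 1.95-fold after *miR-486-3p* (SE 0.09, adjusted p = 0.0124 by limma).

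*PKP3*, a plakophilin of desmosomes, the junctions that anchor keratin filaments, showed the same order. Its signals were 1.57 in both mock samples, 0.47 after *miR-486-5p* and 2.31 with *miR-486-3p*. It fell 2.14-fold after *miR-486-5p* (adjusted p = 0.0475 by limma) and rose 1.67-fold after *miR-486-3p* (adjusted p = 0.0168 by limma), a rise that was not called with median scaling (log2 difference 0.37). *JUP*, plakoglobin, which links cadherins to the cytoskeleton, had signals of −0.92 and −1.03 in mock cells, −1.22 after *miR-486-5p* and −2.29 with *miR-486-3p*. Only the *miR-486-3p* value was called, a 2.5-fold fall (log2 difference −1.32, SE 0.11, adjusted p = 0.0104 by limma). The other desmosomal members moved less: *DSP*, desmoplakin, fell on both its probes after *miR-486-3p* (log2 differences −0.88 and −0.75), and *PKP2* fell by 0.66 on the log2 scale. *OCLN*, occludin, a membrane protein of tight junctions, fell on both its probes too, with differences of −0.67 and −0.72.

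*CRB3*, a small membrane protein that sets apical polarity, had signals of −3.27 and −3.29 on the mock arrays and was not well above background after either strand (−4.51 after *miR-486-5p* and −4.85 with *miR-486-3p*). Its signal after *miR-486-5p* lay above the lowest signal well above background on that array (−4.61), so the measured value stands. As measured, it was 2.35-fold lower there (adjusted p = 0.0475 by limma). After *miR-486-3p* it was at least 2.16-fold lower, with its signal raised to the lowest such signal of that array. Here and for other folds given as "at least", limma tested the measured difference (−1.57 here, adjusted p = 0.00804), which was larger. On this dim probe the background correction decides the size: with normexp the log2 differences were −0.08 and −0.01, and neither was called. *CLDN2*, a pore-forming claudin, was at least 1.43-fold lower after *miR-486-3p* (measured log2 difference −0.89, adjusted p = 0.0203 by limma). *EPCAM*, an epithelial adhesion molecule, was close to background, with −4.56 (not well above it) and −3.82 in mock cells, −4.11 after *miR-486-5p* and −6.45 (not well above it) after *miR-486-3p*. limma called it lower after *miR-486-3p* (adjusted p = 0.0315), but no fold is given because a mock array was also at background, and the call was lost with normexp and without a filter on dim probes. *CDH1*, E-cadherin, the defining epithelial cadherin, was not well above background on any array (−6.75 and −6.84 in mock cells, −6.73 and −6.54 after the strands), so no difference was measured.

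E-box sequences, the sites that ZEB and SNAI factors bind, are shown here for the junction genes because they are the letters through which such repressors are known to reach epithelial promoters. In RefSeq promoter sequences (GRCh38.p14), which held 30 of the 52 members, the 250 bases before the gene start were searched for CAGGTG on either strand, that is also as CACCTG. At least 1 copy was found in 5 of the 30 members (16.7%), against 17.5% of 27305 promoters, so the members as a group were at the background. They were *CRB3*, *DSP*, *OCLN*, *TJP1* and *ZEB1*, and *CRB3* held 5 copies. The windows of 29 bases below are written in the direction of transcription with the motif in capitals. A match is a description of the letters and not evidence of binding.
CRB3, chr19:6464032-6464060, plus strand: tgctcgcaatgCAGGTGtaaggtccccct
CRB3, chr19:6464052-6464080, plus strand: ggtccccctcaCACCTGcgcgcttccgcg
CRB3, chr19:6464113-6464141, plus strand: gggtcccgttaCAGGTGcgcccacagcgc
CRB3, chr19:6464171-6464199, plus strand: tcagcgaggctCAGGTGcacaagccggaa
CRB3, chr19:6464200-6464228, plus strand: gtgcgctctccCAGGTGagtgactaaact
DSP, chr6:7541482-7541510, plus strand: ggcggcgggcgCAGGTGgggaggggcggc
DSP, chr6:7541575-7541603, plus strand: aagaaaccggcCAGGTGtggcctaggcgc
OCLN, chr5:69492503-69492531, plus strand: catccgagtttCAGGTGaattggtcaccg
TJP1, chr15:29969120-29969148, minus strand: cggccggcgcgCAGGTGgcccggcctcgc

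Of these genes, *CRB3*, *DSP* and *OCLN* fell after *miR-486-3p*. They are among the 8 of 11 junction members tested that fell (72.7%), whether or not a copy was found. Whether the motif bears on the falls was not tested. *TJP1*, the tight junction scaffold ZO-1, holds a copy as well and read 2.42 after *miR-486-3p*, against 2.52 and 2.43 on the mock arrays, and 2.57 after *miR-486-5p*, and neither difference was called.

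The keratins, the intermediate filaments of epithelial cells, moved in several directions. *KRT80*, a keratin of cell margins, had signals of 2.27 and 2.29 in mock cells, 0.79 after *miR-486-5p* and 2.76 with *miR-486-3p*. *KRT19*, a keratin of simple epithelia, had signals of −2.33 and −2.38 in mock cells, −3.34 after *miR-486-5p* and −1.91 with *miR-486-3p*. For both keratins the *miR-486-5p* array was below the mock arrays and the *miR-486-3p* array above them. *KRT80* fell 2.8-fold and *KRT19* 1.98-fold after *miR-486-5p* (adjusted p = 0.0475 for each by limma). They rose 1.39-fold and 1.37-fold after *miR-486-3p* (adjusted p = 0.034 and 0.0401 by limma), but with median scaling the differences were 0.10 and 0.08 and were not called. With normexp the *KRT19* difference after *miR-486-5p* was −0.12 and not called.

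*KRT8* and *KRT18* encode the paired keratins of simple epithelia. The *KRT8* probes disagreed, as the plot of its probes shows. The first coding-transcript probe read 3.43 and 3.44 in mock cells, 2.74 after *miR-486-5p* and 2.04 with *miR-486-3p*. The second coding-transcript probe read −1.20 and −1.25 in mock cells, −2.30 after *miR-486-5p* and −3.35 with *miR-486-3p*. A probe for a non-coding transcript of the gene read 2.12 and 2.22 in mock cells, 3.79 after *miR-486-5p* and 2.77 with *miR-486-3p*. Both coding-transcript probes fell after *miR-486-3p*, 2.62-fold and 4.36-fold (adjusted p = 0.00859 and 0.00762 by limma), while the non-coding one rose 1.52-fold (adjusted p = 0.0306 by limma). After *miR-486-5p* the non-coding probe rose 3.07-fold (adjusted p = 0.0475 by limma), the second coding probe fell 2.11-fold (adjusted p = 0.0475 by limma), and the first was 1.61-fold lower without a call (adjusted p = 0.0532 by limma). The mean over the 3 probes, −0.05 after *miR-486-5p* and −0.97 with *miR-486-3p*, does not show this split. *KRT18* read 7.43 and 7.39 in mock cells, 6.83 after *miR-486-5p* and 6.99 with *miR-486-3p* on its first probe, and 4.69, 4.79, 4.19 and 4.34 in the same order on the other. Its differences lay between −0.58 and −0.40, and 1 was called, the first probe after *miR-486-3p* (adjusted p = 0.0447 by limma). Both keratins have many near-identical pseudogenes, and whether these probes also bind their RNA was not tested.

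**Figure D2:**
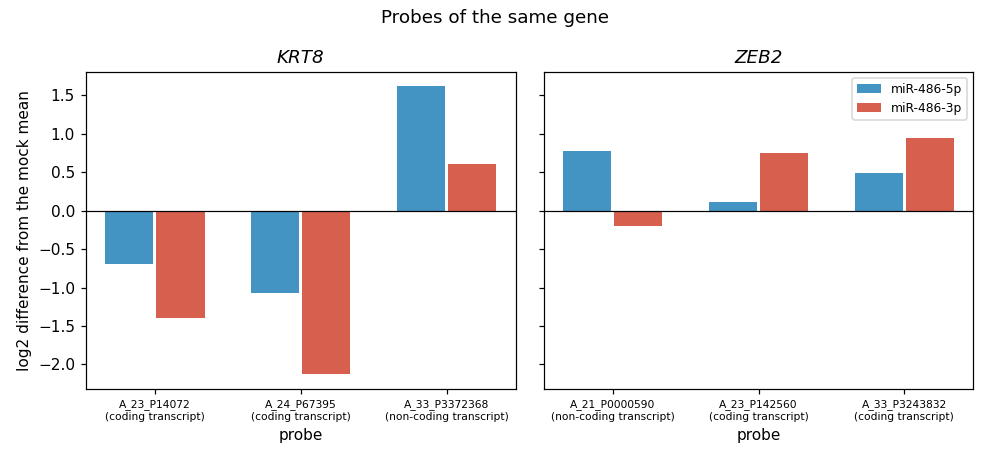
Log2 difference from the mock mean (vertical axis) of each probe of *KRT8* (left) and *ZEB2* (right), with a bar for each strand. The non-coding-transcript probe of *KRT8* is above 0 after both strands and its coding-transcript probes are below 0. The non-coding-transcript probe of *ZEB2* differs in sign from its coding-transcript probes after *miR-486-3p*.

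*KRT7* and *KRT81* were not called after either strand, with differences of 0.15 and −0.22 for *KRT7* and 0.40 and −0.07 for *KRT81*. With median scaling both were called lower after *miR-486-3p* (−0.59 and −0.45) and *KRT7* also with normexp (−0.29), while *KRT81* was 0.16 with quantile normalization. The splicing regulators *ESRP1* and *ESRP2*, which set epithelial isoforms, differed from the mock arrays by −0.13 to 0.14 and were not called, but with median scaling *ESRP1* was called lower after *miR-486-3p* (−0.50) and *ESRP2* was −0.23. *GRHL2*, an epithelial transcription factor, was not well above background on any array.

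Of the 14 mesenchymal members tested, 2 fell (14.3%, against 6.63% of all genes) and 0 rose after *miR-486-5p*. After *miR-486-3p*, 3 fell and 3 rose (21.4% each way, against 30.4% and 30.7% of all genes). *VIM*, vimentin, the mesenchymal intermediate filament, had signals of 9.02 and 8.99 in mock cells, 8.15 after *miR-486-5p* and 8.46 with *miR-486-3p*. Both transfected arrays were below both mock arrays, 1.82-fold after *miR-486-5p* (SE 0.09, adjusted p = 0.0488 by limma) and 1.46-fold with *miR-486-3p* (SE 0.09, adjusted p = 0.0278 by limma). *CDH2*, N-cadherin, read 0.08 and 0.05 in mock cells, −0.33 after *miR-486-5p* and 0.28 with *miR-486-3p* on its first probe, and 2.16, 1.98, 1.45 and 1.82 in the same order on the other. Both probes were lowest after *miR-486-5p*, by −0.40 and −0.61, and no difference from mock was called. With normexp *CDH2* was called lower after both strands (−0.43 and −0.12), with probes well above background on all 4 arrays it was called after *miR-486-5p* (−0.51), and with median scaling it was called lower after *miR-486-3p* (−0.39). *FN1*, fibronectin, a matrix glycoprotein, read −3.51 and −3.77 in mock cells, −4.82 after *miR-486-5p*, where it was not well above background, and −3.82 after *miR-486-3p*. It was at least 1.96-fold lower after *miR-486-5p*, a difference that was not called (adjusted p = 0.0552 by limma). With normexp it was −0.049, and with median scaling −1.05 and called.

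Of the transcription factors that repress epithelial genes, *SNAI1* and *ZEB2* rose after *miR-486-3p*, and none was called after *miR-486-5p* in the main fit. Other settings did call some after *miR-486-5p*. *SNAI1*, *ZEB1* and *ZEB2* were called with normexp (0.29, 0.35 and 0.19) and with an intensity trend. *SNAI1* and *ZEB2* were called with probes well above background on all 4 arrays, and *SNAI1* on gene means. These settings called 30.5% to 46.6% of all genes, against 10.2% in the main fit. *SNAI1* read −1.38 and −1.33 in mock cells, −0.70 after *miR-486-5p* and −0.39 with *miR-486-3p*. It rose 1.96-fold after *miR-486-3p* (SE 0.09, adjusted p = 0.0122 by limma), and its 1.57-fold higher value after *miR-486-5p* was not called (adjusted p = 0.0557 by limma). *ZEB2* rose on its coding-transcript probes after *miR-486-3p*, 1.68-fold and 1.93-fold (adjusted p = 0.0166 and 0.0145 by limma). Its non-coding-transcript probe had a log2 difference of −0.20 after *miR-486-3p*, with a signal of −2.85, and was not called. *ZEB1* read 2.42 and 2.28 in mock cells, 2.64 after *miR-486-5p* and 2.33 with *miR-486-3p* on its first probe, and −0.08, −0.43, 0.41 and −0.22 in the same order on the other. Both probes were highest after *miR-486-5p*, by 0.29 and 0.66, without a call. After *miR-486-3p* the mean *ZEB1* difference was 0.01, and −0.37 with median scaling. *TWIST1* was not called after either strand (−0.12 and 0.19, the latter −0.18 with median scaling), and *SNAI2* was not well above background on any array (−5.26, −4.93, −4.66 and −4.69 on mock 1, mock 2, *miR-486-5p* and *miR-486-3p*).

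Among the matrix members, *SPARC* and *LOXL2* stood out. *SPARC*, a secreted glycoprotein that binds collagen, read −3.10 and −3.26 in mock cells, −3.83 after *miR-486-5p* and −0.18 with *miR-486-3p*. It rose 7.99-fold after *miR-486-3p* (log2 difference 3.00, SE 0.12, adjusted p = 0.00762 by limma), the largest difference of any member, and was 1.57-fold lower after *miR-486-5p* without a call (adjusted p = 0.0741 by limma). With normexp the rise was 1.23 on the log2 scale. *LOXL2*, an enzyme that crosslinks collagen, read 3.67 and 3.64 in mock cells, 2.38 after *miR-486-5p* and 2.31 with *miR-486-3p*. It fell 2.43-fold after *miR-486-5p* (SE 0.09, adjusted p = 0.0475 by limma) and 2.54-fold with *miR-486-3p* (SE 0.09, adjusted p = 0.00881 by limma). The collagens *COL4A1*, *COL4A2*, *COL5A1* and *COL6A1* were not called after either strand, with differences of −0.32 to 0.33, of which those of *COL4A1*, *COL5A1* and *COL6A1* after *miR-486-3p* turned below 0 with median scaling. *COL4A2* was called lower after *miR-486-3p* with that scaling (−0.51), and *COL4A1* after *miR-486-3p* was 0.17 without mock 1 and 0.50 without mock 2. *COL1A1*, a chain of the main fibrillar collagen, was well above background on the mock arrays alone (−4.50 and −4.36). It was at least 1.13-fold lower after *miR-486-5p* (adjusted p = 0.0523 by limma), and limma called it lower after *miR-486-3p* (adjusted p = 0.0424), where its signal of −4.97 gives no fold and the call was lost with normexp and without a filter.

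Set side by side, the median difference of the epithelial members minus that of the mesenchymal members was 0.10 after *miR-486-5p* and −0.40 with *miR-486-3p*. After *miR-486-5p* the medians were −0.05 (19 epithelial members with a value) and −0.15 (14 mesenchymal members). After *miR-486-3p* they were −0.31 (18 members) and 0.09 (13 members), against 0.06 for all genes. After *miR-486-3p*, 8 of the 18 epithelial members were past the limit downward (44.4%, against 27.2% of all genes) and 2 upward (11.1%, against 30.5%). limma called 9 of 19 lower, *EPCAM* among them (47.4%, against 30.4% of all genes), and 4 higher (21.1%, against 30.7%), with *KRT8* both ways. Of the 13 mesenchymal members, 2 were past the limit downward (15.4%) and 3 upward (23.1%). The value of 0.10 after *miR-486-5p* changed sign under some settings (−0.042 with probes above background on all arrays), and the value after *miR-486-3p* stayed below 0 under all settings tried, from −0.61 to −0.22. These medians are descriptions with no test.

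**Figure D3:**
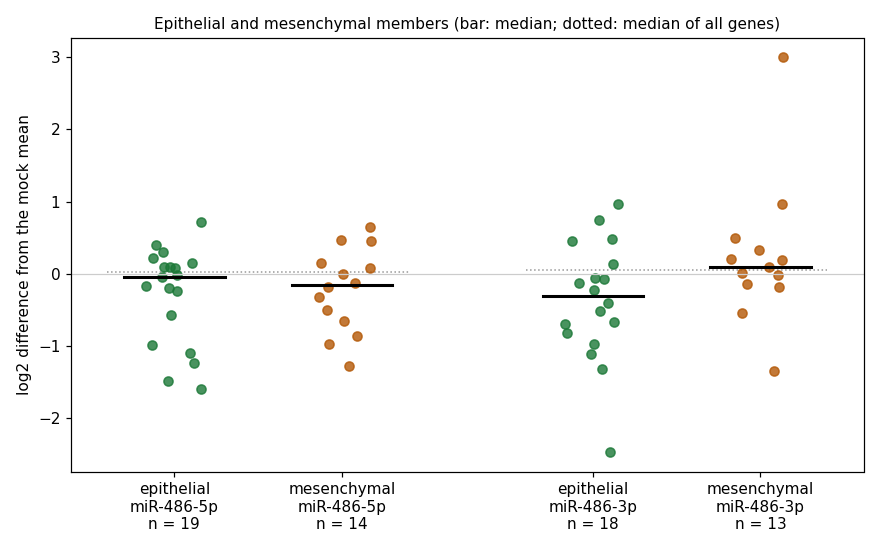
Log2 difference from the mock mean (vertical axis) of the epithelial and mesenchymal members with a value, after each strand. Each point is a gene, the bars are medians and the dotted lines are the medians of all genes. After *miR-486-3p* the epithelial median is −0.31 and the mesenchymal median 0.09, and the points of both sides overlap.

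Of the TGF-beta ligands and receptors, *TGFB1*, *TGFBR1* and *TGFBR2* differed between the strands. *TGFB1*, a TGF-beta ligand, read 2.09 and 2.15 in mock cells, 2.23 after *miR-486-5p* and 0.56 with *miR-486-3p*. Only the *miR-486-3p* array was low, a 2.94-fold fall (log2 difference −1.56, SE 0.09, adjusted p = 0.00837 by limma). *TGFB2*, another ligand, read −2.57 and −2.59 on the mock arrays and −3.71 after either strand. It fell 2.19-fold after *miR-486-5p* (adjusted p = 0.0475 by limma) and 2.2-fold with *miR-486-3p* (adjusted p = 0.0101 by limma). On this dim probe normexp gave −0.20 after *miR-486-5p* and −0.10 with *miR-486-3p*, and the latter was not called.

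*TGFBR2*, the type II receptor that binds the ligand, read 2.29 and 2.28 in mock cells, 3.30 after *miR-486-5p* and 2.06 with *miR-486-3p*. It rose 2.01-fold after *miR-486-5p* (SE 0.09, adjusted p = 0.0475 by limma) and its difference of −0.22 after *miR-486-3p* was not called. *TGFBR1*, the type I receptor, read −1.86 and −2.01 in mock cells, −2.50 after *miR-486-5p* and −1.38 with *miR-486-3p*. It rose 1.47-fold after *miR-486-3p* (adjusted p = 0.0434 by limma), a call that was lost with median scaling (0.18), and was 1.47-fold lower after *miR-486-5p* without a call (adjusted p = 0.0829 by limma). The type II receptor was thus highest after *miR-486-5p* and the type I receptor highest after *miR-486-3p*. *SMAD3*, the signal transducer, read 3.79 and 3.74 in mock cells, 3.00 after *miR-486-5p* and 3.23 with *miR-486-3p*. Both transfected arrays were below both mock arrays, and the 1.45-fold fall after *miR-486-3p* was called (adjusted p = 0.0295 by limma) while the 1.69-fold lower value after *miR-486-5p* was not (adjusted p = 0.052 by limma).

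*TGFBI*, a secreted adhesion protein named for its induction by TGF-beta, read 3.05 in both mock samples, 1.97 after *miR-486-5p* and 4.0 with *miR-486-3p*. It fell 2.12-fold after *miR-486-5p* (adjusted p = 0.0475 by limma) and rose 1.93-fold after *miR-486-3p* (adjusted p = 0.0121 by limma). *EMP1*, a small membrane protein of epithelial cells, read 6.21 and 6.15 in mock cells, 4.11 after *miR-486-5p* and 4.96 with *miR-486-3p*. It fell 4.2-fold after *miR-486-5p* (log2 difference −2.07, SE 0.09, adjusted p = 0.0475 by limma) and 2.34-fold with *miR-486-3p* (−1.22, SE 0.09, adjusted p = 0.01 by limma). Its difference after *miR-486-5p* was the largest of any member for that strand.

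**Figure D4:**
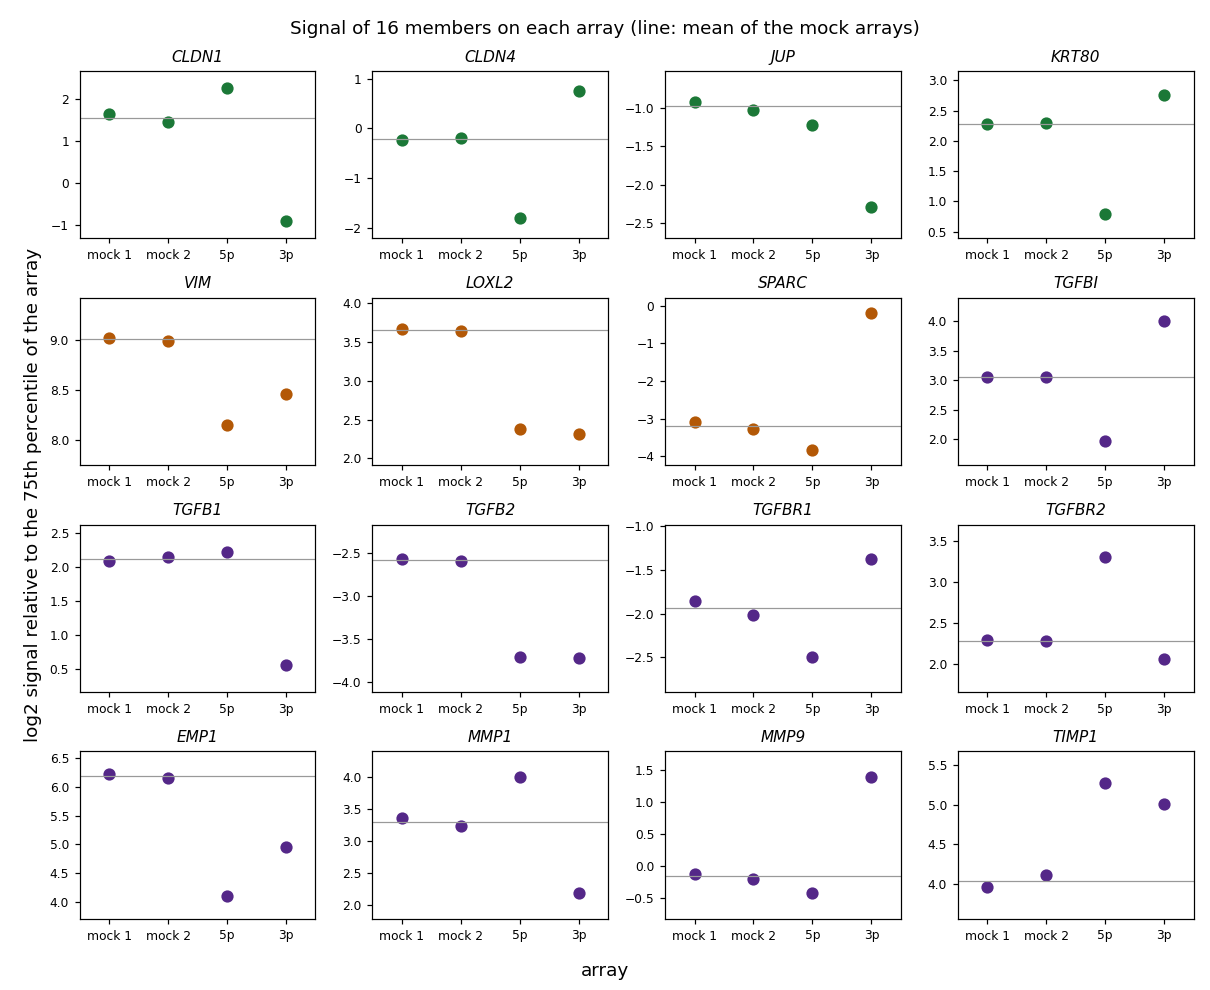
Log2 signal relative to the 75th percentile of the array (vertical axis, scaled separately in each panel) of 16 members on mock 1, mock 2, then *miR-486-5p*, then *miR-486-3p* (horizontal axis). The line is the mean of the mock arrays. The mock arrays lie close together in every panel, *CLDN4*, *KRT80* and *TGFBI* lie below the line after *miR-486-5p* and above it after *miR-486-3p*, and *LOXL2*, *TGFB2*, *VIM* and *EMP1* lie below it after both.

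The metalloproteinases, which cut matrix proteins, also split by strand. *MMP9*, a gelatinase, read −0.13 and −0.19 in mock cells, −0.42 after *miR-486-5p* and 1.39 with *miR-486-3p*. Only the *miR-486-3p* array was high, a 2.92-fold rise (SE 0.09, adjusted p = 0.00841 by limma). *MMP1*, an interstitial collagenase, read 3.36 and 3.25 in mock cells, 4.01 after *miR-486-5p* and 2.18 with *miR-486-3p*. It fell 2.17-fold after *miR-486-3p* (SE 0.11, adjusted p = 0.0125 by limma) and was 1.63-fold higher after *miR-486-5p* without a call (adjusted p = 0.0589 by limma). *MMP10*, a stromelysin, read −2.81 and −3.41 in mock cells, −2.71 after *miR-486-5p* and −4.48, not well above background, after *miR-486-3p*. It was at least 2.43-fold lower after *miR-486-3p* without a call (adjusted p = 0.0525 by limma), and its mock arrays were the farthest apart of the member probes above background on both. *MMP14*, a membrane-bound metalloproteinase, was not called (0.25 and −0.48). *MMP2*, the other gelatinase, was well above background after *miR-486-5p* alone, at least 1.66-fold higher without a call (adjusted p = 0.227 by limma), and *MMP7* on no array.

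*TIMP1*, an inhibitor of metalloproteinases, read 3.96 and 4.11 in mock cells, 5.28 after *miR-486-5p* and 5.01 with *miR-486-3p*. Both transfected arrays were above both mock arrays, 2.36-fold after *miR-486-5p* (SE 0.12, adjusted p = 0.0478 by limma) and 1.97-fold with *miR-486-3p* (SE 0.12, adjusted p = 0.0176 by limma). *TIMP2*, a second inhibitor, fell 1.67-fold after *miR-486-3p* (adjusted p = 0.0184 by limma) and was not called after *miR-486-5p* (−0.31). *TIMP3* was not well above background on any array.

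AP-1, the FOS and JUN transcription factor, is known to drive metalloproteinase promoters, and its motif TGANTCA (N is any base, and the motif reads alike on both strands) is shown for members with a large difference. It was found before the gene start of 5 of the 30 members (16.7%), against 6.60% of all promoters: *CLDN2*, *CLDN4*, *EMP1*, *MMP7* and *MMP10*. Of these, *CLDN4* rose and *CLDN2* and *EMP1* fell after *miR-486-3p*. After *miR-486-5p*, *CLDN4* and *EMP1* fell and *CLDN2* was not called. *MMP10* was not called after either strand, and *MMP7* had no value. Whether AP-1 bears on these differences was not tested. The windows are written as above.
EMP1, chr12:13196540-13196568, plus strand: gtctgtgtgtcTGAGTCAgagagagccta
EMP1, chr12:13196667-13196695, plus strand: taaagccagacTGATTCAtagaaactcct
CLDN4, chr7:73830746-73830774, plus strand: ctgggctgTGATTCAgtgtctgtctcccg
CLDN4, chr7:73830824-73830852, plus strand: agactggatagTGACTCAgggacccgggg
MMP10, chr11:102780678-102780706, minus strand: aaacacatgcaTGAATCAtactgttggtg

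The strands were also set against each other directly, a contrast from which the mock values cancel. limma called 24 of 47 members, against 53.1% of all genes. It called 12 lower after *miR-486-3p* than after *miR-486-5p* (25.5%), against 26.4%, 12 higher (25.5%), against 25.7%, and 0 both ways, against 0.942%. These shares are close to those of all genes. Of the 19 epithelial members tested, 7 were lower (36.8%) and 4 higher (21.1%). *EPCAM*, 1 of the 7, entered the fit only through the *miR-486-5p* array. Of the 14 mesenchymal members tested, 0 were lower and 4 higher (*CDH2*, *FN1*, *ZEB2* and *SPARC*, 28.6%). The largest of these differences were those of *SPARC* (3.65, adjusted p = 0.0119 by limma) and *CLDN1* (−3.19, adjusted p = 0.0119 by limma).

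Genes of the same pathways outside the member group were counted in lists. Of 22 other TGF-beta pathway genes tested, 5 fell (22.7%, against 30.4% of all genes) and 9 rose (40.9%, against 30.7%) after *miR-486-3p*, with a median of 0.47, against 0.06 for all genes. The 9 include *CILP*, which was tested only because of its signal after *miR-486-3p*. After *miR-486-5p* 1 fell (4.55%, against 6.63%) and 1 rose (4.55%, against 3.55%), with a median of −0.21, against 0.03. Among the genes well above background on all arrays, the highest after *miR-486-3p* were feedback inhibitors of the pathway. *SMAD6* rose by 2.76, *SMAD7* by 2.28 and the pseudoreceptor *BAMBI* by 2.02 on the log2 scale. *SMAD6* fell by 1.80 after *miR-486-5p*, while *TGFBR3*, a co-receptor, rose by 0.97. Among the lower genes after *miR-486-3p* were *SMURF2*, a ubiquitin ligase of the pathway, and *SMAD2*, which fell by 0.91 and 0.80.

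Of 30 other matrix genes tested, 6 fell (20.0%, against 6.63% of all genes) and 1 rose (3.33%, against 3.55%) after *miR-486-5p*, with a median of −0.12. The gene that rose was *COL4A6*, which was tested only because of its signal after *miR-486-5p*, so its rise is tied to how it was selected. After *miR-486-3p*, 10 fell (33.3%, against 30.4%) and 7 rose (23.3%, against 30.7%), with a median of −0.06. *LOX*, the founding lysyl oxidase, fell by 1.00 after *miR-486-5p* and by 2.04 after *miR-486-3p*. *LOXL1*, its relative, fell by 1.52 after *miR-486-5p*, and the hemidesmosome collagen *COL17A1* fell by 1.40 after *miR-486-5p* and by 1.00 after *miR-486-3p*. *COL7A1*, the anchoring fibril collagen, rose by 3.23 after *miR-486-3p*, and *COL5A2* and *COL12A1* rose by 1.57 and 1.26. Of 15 other epithelial genes tested, 1 fell (6.67%, against 6.63%) and 0 rose after *miR-486-5p*, with a median of −0.13. After *miR-486-3p*, 5 fell (33.3%, against 30.4%) and 3 rose (20.0%, against 30.7%), with a median of 0.03. Among those well above background on all arrays, the lowest after *miR-486-3p* were *SPINT2*, a protease inhibitor, and *F11R*, a junction adhesion molecule, which fell by 1.64 and 1.61, and *PKP4*, which fell by 0.88. *CLDN3*, a claudin, rose by 1.67. The epithelial genes outside the member group thus moved both ways after *miR-486-3p*.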

How the data were processed

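RNA of A549 cells was profiled on 4 Agilent arrays with 1 dye. The authors deposited the output of Agilent Feature Extraction 12.1.1.1 for each array, in which each spot has a background-corrected intensity on a linear scale, and log2 values in a table of the whole series, with the same quartiles for every array. The array design is annotated on hg19. Gene symbols came from a GRCh38.p14 RefSeq table through probe accessions: 31104 of 33080 matched. No sample was left out.

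Outlier spots were removed (50 to 72 an array), log2 intensity was scaled to the 75th percentile of each array, and spots of a probe were averaged. For the difference of a given strand, a probe had to be well above background in transfected cells or in both mock samples. The limma fit took probes well above background in both mock samples or after either strand. Among the members, *EPCAM* and *MMP2* entered the fit only through the *miR-486-5p* array. Of the called genes in the other lists, *COL4A6* entered only through that array and *CILP* only through the *miR-486-3p* array. Where a whole group was not well above background, its array values were raised to the lowest signal among probes well above background, if they lay below it. This gives a bound ("at least"), and no fold is given if the order then turned. limma was fitted to the values before this step, so an adjusted p beside a bound belongs to the measured difference. Differences of a gene's usable probes were averaged. limma 3.58.1 (R 4.3.3) was fitted to all 4 arrays in 3 groups, and was run on simulated data. The simulation gave all 4 arrays the same spread, so it cannot test whether the transfected arrays vary like the mock arrays. A gene was called if at least 1 probe was called and none the other way.

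The members and gene lists were chosen with earlier results of these data known. Values on every array are given for members past a log2 difference of 1 after either strand and for *CDH1*, *CDH2*, *VIM*, *FN1*, *EPCAM*, *ZEB1*, *SNAI2*, *TGFB1*, *TGFB2*, *TGFBR1*, *TGFBR2*, *SMAD3*, *KRT8*, *KRT18* and *EMP1*; of the other lists, genes are named from the 3 lowest and 3 highest with all probes in use well above background, and the values of some of these and of a marker gene are not reported here. Values of *KRT19*, *SNAI1*, *TJP1* and *DCN* were added after they were seen. Alternatives were other scalings, background corrections, filters, probes and tests, each mock array left out, and the authors' log2 table. The number of arrays limits the precision.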

Additional observations from a re-analysis of the deposited data

Results flagged for a closer look

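The members whose difference between the strands was itself called by limma are listed here by role, as *miR-486-3p* minus *miR-486-5p* on the log2 scale over the called probes. Where 1 array was not well above background, the value is a bound, with that array at its lowest signal well above background, and the true difference is at least that large. With 1 array per strand these are differences between 2 arrays.

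In the junction and adhesion genes, *CLDN1* (−3.19), *EPCAM* (−0.28 as a bound, not above background after *miR-486-3p*), *CLDN2* (−0.73 as a bound, likewise), *JUP* (−1.08), *OCLN* (−1.0) and *DSP* (−0.73, on 1 of its 2 probes) were lower after *miR-486-3p*. *EPCAM* entered the fit only through the *miR-486-5p* array. *CLDN4* (2.55) and *PKP3* (1.84) were higher, and lay on opposite sides of the mock arrays. Among the keratins, *KRT8* was lower (−0.92) and *KRT80* (1.96) and *KRT19* (1.44) were higher. Of the mesenchymal genes, *SPARC* (3.65), *FN1* (0.79 as a bound, not above background after *miR-486-5p*), *ZEB2* (0.63, on 1 of its 3 probes) and *CDH2* (0.61, on 1 of its 2 probes) were higher.

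In the TGF-beta group, *TGFB1* (−1.67) and *TGFBR2* (−1.23) were lower, and *TGFBI* (2.03), *TGFBR1* (1.11) and *EMP1* (0.85) were higher. Of the metalloproteinases, *MMP1* (−1.83), *MMP10* (−1.69 as a bound, not above background after *miR-486-3p*) and *MMP14* (−0.72) were lower, and *MMP9* (1.81) was higher.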

How the results depend on the processing

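The number of members called by limma after *miR-486-5p*, 13, was the least stable value. It was 22 with normexp (46.8% of members, against 44.6% of all genes), 21 with probes well above background on all 4 arrays (52.5%, against 38.3%), 22 on gene means (46.8%, against 30.5%) and 27 with an intensity trend (57.4%, against 46.6%), so the member share with normexp was close to that of all genes. It was 0 with the authors' log2 values, without a filter on dim probes and by the methods' t-test after adjustment (16 members at an unadjusted p under 0.05). The t-test also called 0 members after *miR-486-3p* (24 unadjusted), against 30. *CLDN1*, *CDH2*, *KRT18*, *MMP1*, *SMAD3*, *SNAI1*, *SPARC* and *TGFBR1*, not called after *miR-486-5p* in the main fit, were called under 3 other settings. These were probes well above background on all 4 arrays, an intensity trend and gene means. Without a filter 52 members were tested among more dim probes; the cause of the other changes was not tested. Members past the limit numbered 13 after *miR-486-5p* and 17 with *miR-486-3p* with normexp, 10 and 11 with a limit of 1, and 22 to 23 and 24 to 27 when a mock array was left out. With normexp, 9 of 46 members were lower and 4 higher after *miR-486-5p*, against 8.30% and 4.59% of all genes. After *miR-486-3p*, 10 of 42 were lower and 7 higher, against 19.1% and 15.5%. Shares of all genes for the limit of 1 and for a mock array left out are not given here. The difference between the epithelial and mesenchymal medians was −0.042 after *miR-486-5p* with probes above background on all arrays and −0.044 with the brightest probe of each gene, −0.071 as means, and 0.03 to 0.11 without a mock array. After *miR-486-3p* it was −0.22 with normexp, −0.61 as means, and −0.51 to −0.43 without a mock array. *KRT8* after *miR-486-5p* turned to 0.17 with normexp. Leaving out mock 1 or mock 2 moved *EPCAM* after *miR-486-5p* to −0.29 or 0.45 and *MMP10* to 0.70 or 0.11.

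With median scaling the mix of *miR-486-3p* calls was 27 lower and 7 higher, against 18 and 11, and that of the direct contrast 20 lower and 8 higher, against 12 and 12. With that scaling 72.3% of members and 64.7% of all genes were called after *miR-486-3p*, and the median of all genes moved by −0.37. Shares of all genes in the direct contrast with that scaling are not given here. Calls after *miR-486-3p* were lost for *KRT18*, *KRT19* and *TGFBR1* with quantile normalization and with the authors' values, for *SMAD3* with quantile normalization, for *CLDN2*, *COL1A1*, *EPCAM*, *KRT18*, *KRT19*, *PKP2*, *TGFBR1* and *TIMP1* without a filter, and for *CLDN2*, *COL1A1*, *CRB3*, *EPCAM* and *TGFB2* with normexp. With median scaling calls after *miR-486-3p* were gained for *CDH2*, *COL4A2*, *ESRP1*, *KRT7*, *KRT81*, *MMP10*, *MMP14* and *TGFBR2*. The *VIM* call after *miR-486-5p* was lost with the brightest probe of each gene. With normexp *JUP* after *miR-486-3p* was −0.51, *OCLN* −0.16, *DSP* −0.42, and *CLDN4* after *miR-486-5p* was −0.80. Dim probes, such as those of *CRB3*, *FN1*, *TGFB2*, *KRT19* and *SPARC*, depended most on the background correction in the values given above. No paired analysis was possible because each strand has 1 array. limma without a mock array has no residual degree of freedom and was not run, a slide block was not run since all arrays lay on 1 slide, and normexp used the median spot signal.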
